A study of Mus musculus with 10 samples.

Results

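The genes described here are 8 members of the chemokine network that draws cytotoxic lymphocytes into tissue: the CXCR3 ligands Cxcl9, Cxcl10 and Cxcl11 with their receptor gene Cxcr3, the ligand Cxcl16 with its receptor gene Cxcr6, the CC chemokine Ccl5, and Ifng, which encodes interferon gamma. They were chosen by symbol, by matching the Ensembl identifiers of the count table to these names, and all 8 were found among the 37417 genes of the table. All 8 also passed the filter on low counts, which left 15299 genes.

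CXCL9, CXCL10 and CXCL11 are small secreted proteins that macrophages, dendritic cells and tumor cells release when interferon gamma reaches them, and activated T cells and natural killer (NK) cells follow them through the receptor CXCR3. CXCL16 is made as a membrane-bound protein, from which a soluble chemokine is shed, and its receptor CXCR6 marks effector and tissue-resident lymphocytes. T and NK cells themselves secrete interferon gamma and CCL5, so the ligands, the receptors and the inducing cytokine come partly from different cells of the same tumor.

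RNA was measured in whole tumors from Panc02 cells, a mouse pancreatic cancer line, that grew s.c. in the flank of C57BL/6J mice labelled wild type, 12 weeks old, until day 16. In 5 tumors the cancer cells had been edited with CRISPR–Cas9 and a guide against Cda (sgCda), the gene for the pyrimidine salvage enzyme cytidine deaminase, and in the other 5 they carried a nontargeting guide (sgNT). The hosts of both groups had an intact Cda gene and an intact immune system, and no treatment was listed. Per the study's methods, clones grown from single cells were isolated from the edited lines, and a pool of clones served survival experiments alone, so each group may stand for 1 clone.

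The libraries held 28051907 to 39484964 counts assigned to genes. Cda itself ranged from 10.1 to 14.7 CPM (counts relative to the scaled library size) in sgNT and from 7.47 to 12.5 CPM in sgCda tumors. Its difference did not pass the test (log2 fold change −0.30, SE 0.17, edgeR adjusted p = 0.9996). This count does not read out the edited sequence and includes host cells. The study found Cda RNA in endothelial cells and fibroblasts of its tumor models. It checked silencing by RT–qPCR over the targeted region and by western blotting. The adjusted threshold of 0.05 was passed by 0 (0%) of the 15299 genes in edgeR, and by 0 in DESeq2 and limma-voom. An unadjusted p under 0.05 was found for 382 genes (2.5%, edgeR), and the groups did not overlap for 92 (0.601%). The library sgCda replicate 3 stood apart, with the highest summed level of 11 T cell marker genes (790.3 CPM, against 247 to 539 in the other 9 tumors) and of 6 skeletal muscle genes (1946 CPM, against 5.0 to 481). Results that rested on it are given with and without it.

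In the build GRCm38, Cxcl9, Cxcl10 and Cxcl11 lie side by side on the minus strand of chromosome 5, within 44.1 kb, at chr5:92321347-92328079, chr5:92346638-92348889 and chr5:92359544-92365485. The GENCODE annotation lists Cxcl11 as a polymorphic pseudogene, because its reading frame is interrupted in the reference strain C57BL/6, so a Cxcl11 count in these hosts is a transcript level and not a measure of a working ligand. The other 7 are protein coding: Cxcr3 at chrX:101731535-101734269, minus strand; Cxcl16 at chr11:70453983-70459984, minus strand; Cxcr6 at chr9:123806475-123811760, plus strand; Ifng at chr10:118441046-118445892, plus strand; and Ccl5 at chr11:83525778-83530518, minus strand. Cxcl10 shares 133 exonic bases with Art3 on the opposite strand, Cxcl16 shares 552 with Zmynd15, and Cxcl11 shares 1582 with the processed pseudogene Gm2673, which had 0 counts in every tumor. On the same strand, 336 exonic bases of Ifng lie in another annotated transcript, Gm49751. The count table has no row for Gm49751, so reads of either transcript from these bases would count as Ifng. The strand setting of the counting was not stated, so reads from the shared bases of Cxcl10, Cxcl16 and Cxcl11 cannot be assigned with certainty.

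The promoters of Cxcl9 and Cxcl10 are shown because these neighbours, both known targets of interferon gamma, differed in how far they ranged over the tumors: the highest tumor had 1.61 times the lowest for Cxcl9 and 2.38 times for Cxcl10. Over the 10 tumors their log2 levels had r = 0.68, a description. Whether promoter motifs bear on these ranges was not tested. The windows hold 250 bases before and 50 bases after the gene start (RefSeq, GRCm38.p6, minus strand, written 5′ to 3′), and 5 of the 8 genes had such a window in the table used. They lie at chr5:92328030-92328329 for Cxcl9 and chr5:92348840-92349139 for Cxcl10. Capitals mark matches, on either strand, to 4 motifs: the interferon-stimulated response element (ISRE) core GAAANNGAAA, the gamma-activated site (GAS) TTCNNNGAA, the NF-κB consensus and the AP-1 motif TGANTCA.
Cxcl9: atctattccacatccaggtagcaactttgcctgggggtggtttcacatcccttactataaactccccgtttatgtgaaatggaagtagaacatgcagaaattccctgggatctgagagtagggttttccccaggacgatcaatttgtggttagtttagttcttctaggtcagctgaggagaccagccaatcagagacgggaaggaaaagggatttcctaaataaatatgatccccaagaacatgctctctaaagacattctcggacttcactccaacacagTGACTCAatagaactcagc
Cxcl10: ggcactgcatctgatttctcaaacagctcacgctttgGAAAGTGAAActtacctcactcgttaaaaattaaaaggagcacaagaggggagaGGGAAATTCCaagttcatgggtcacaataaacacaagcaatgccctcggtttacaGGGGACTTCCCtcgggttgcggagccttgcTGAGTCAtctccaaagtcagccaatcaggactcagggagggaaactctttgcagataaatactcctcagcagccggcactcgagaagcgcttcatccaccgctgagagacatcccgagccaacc
In the Cxcl10 window stood 1 ISRE core, 213 to 204 bases before the gene start, and NF-κB matches at −159 to −150 and, as an overlapping pair of matches, at −104 to −94. An AP-1 match followed at −74 to −68. In the Cxcl9 window the only match to the forms searched was an AP-1 motif inside the transcribed part, 31 to 37 bases after the start. NF-κB sites of a shorter form were not marked in either window. Among all 32851 windows of the table, 3.44% held the ISRE core, 8.46% the NF-κB consensus, 8.3% the GAS motif and 7.81% the AP-1 motif. Of the windows of Ifng, Cxcr3 and Cxcr6, only that of Ifng had a match, a GAS motif at −249 to −241. These are matches of letters in a short window and do not show binding. A missing match to these 4 motifs does not show that a window lacks an interferon response element or an NF-κB site of another form.

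Per kilobase of exon, Cxcl9 was by far the most abundant of the 8 transcripts. Its level was 330 ± 46.3 RPKM (CPM per kilobase of exon, mean ± SD over all 10 tumors), and at 994 CPM it stood above 99.46% of the genes tested. Next in order were Ccl5 at 113 ± 50.1, Cxcl16 at 72.3 ± 10.7, Cxcl10 at 48.9 ± 17.9 and Cxcr6 at 37.7 ± 18.4 RPKM. Ifng (7.15 ± 2.75), Cxcr3 (6.60 ± 2.63) and Cxcl11 (1.11 ± 0.406) were far lower. Each gene lay above the next in this order in all 10 tumors, except that Cxcl16 exceeded Cxcl10 in 8 tumors, Cxcl10 exceeded Cxcr6 in 7, and Ifng exceeded Cxcr3 in 6. The neighbours in these 3 pairs were not separated beyond their spread. The Cxcr6 transcript was above that of Cxcr3, its sister receptor, in every tumor.

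None of the 8 genes differed between the groups beyond the spread between tumors: 0 passed the adjusted threshold, 0 an unadjusted p under 0.05, and in 0 did the groups separate. The fitted log2 fold change was above 0 in 6 genes and below 0 in 2 (Cxcl10 and Cxcl11), with a median of 0.08, where 52.9% of all genes tested were above 0 with a median of 0.0078. Without sgCda replicate 3 the split turned to 2 above and 6 below 0, with a median of −0.071, where 51.9% of all genes were above 0. In that fit 1 of the 8, Cxcl10, had an unadjusted p under 0.05, as had 4.86% of all genes.

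**Figure D1:**
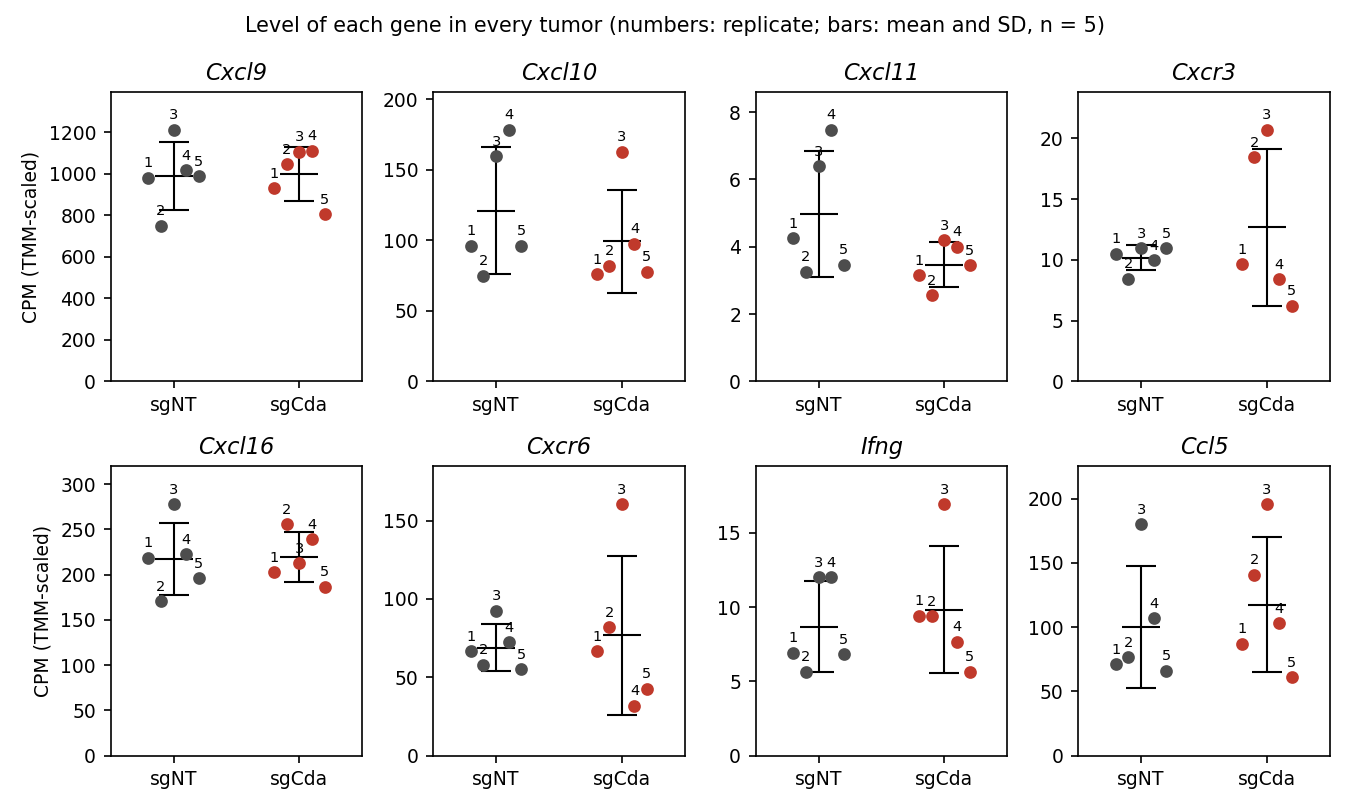
CPM of each of the 8 genes (y axis, linear from 0) in every sgNT and sgCda tumor (x axis); each point is 1 tumor with its replicate number, and bars give the mean and SD of 5 tumors. The groups overlap for every gene, Cxcl9 and Cxcl16 vary little, and Cxcr3 and Cxcr6 spread widely among sgCda tumors, with replicate 3 highest in both.

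Cxcl9, the CXCR3 ligand most closely tied to interferon gamma, was at 980.4, 750.1, 1211, 1017 and 988 CPM in sgNT replicates 1 to 5. In sgCda replicates 1 to 5 it was at 931, 1044, 1105, 1110.0 and 804 CPM. All sgCda values lay inside the sgNT range, and the highest of all 10 tumors was only 1.61 times the lowest. The group means were 989 ± 164 and 999 ± 131 CPM (SD, n = 5 each). The fitted log2 fold change was 0.014 with an SE of 0.13 (95% CI −0.28 to 0.30, edgeR adjusted p = 0.9996), an interval that runs from 17.4% lower to 23.4% higher in sgCda tumors.

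Cxcl10, which binds the same receptor and also responds to type I interferon, was at 96.2, 74.9, 159.6, 178 and 96.2 CPM in sgNT tumors. In sgCda tumors it was at 76.1, 82.0, 163, 97.6 and 77.7 CPM. The 10 tumors fell into a lower set of 7 (74.9 to 97.6 CPM) and an upper set of 3 (159.6 to 178 CPM), and the upper set held sgNT replicates 3 and 4 and sgCda replicate 3. Between the groups the log2 fold change was −0.29, with an SE of 0.28 and a 95% CI of −0.90 to 0.32 (edgeR adjusted p = 0.9996). It was −0.54 without sgCda replicate 3 (edgeR unadjusted p = 0.0454, adjusted 0.819) and −0.11 without sgNT replicate 4.

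Cxcl11 was counted only 94 to 238 times per library. Its levels were 4.25, 3.25, 6.39, 7.48 and 3.47 CPM in sgNT and 3.15, 2.56, 4.20, 4.00 and 3.45 CPM in sgCda tumors. None of the sgCda tumors was above the sgNT mean of 4.97 ± 1.87 CPM (SD, n = 5), and 2 were below every sgNT tumor, while the sgNT mean was carried by replicates 3 and 4. With a log2 fold change of −0.52 (SE 0.25, 95% CI −1.08 to 0.043), Cxcl11 had the smallest unadjusted p of the 8 genes, 0.0670, and an adjusted p of 0.9996 (edgeR). Without sgNT replicate 4 the value was −0.33 (edgeR adjusted p = 0.9997). Its unadjusted p was under 0.05 with the replicate number as a block (−0.46, edgeR unadjusted p = 0.0323, adjusted 0.99995), with no filter beyond 1 count in any tumor (0.0474, adjusted 0.862), without sgNT replicate 2 (0.0283) and without sgNT replicate 5 (0.0366), where the adjusted p was above 0.999 in both.

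The balance of the CXCR3 ligands was read as Cxcl9 over Cxcl10 within each tumor, a ratio of CPM that library size cannot move. It was 10.2, 10.01, 7.59, 5.71 and 10.3 in sgNT and 12.2, 12.7, 6.79, 11.4 and 10.4 in sgCda tumors. The 3 highest ratios were those of sgCda replicates 1, 2 and 4, and the 3 lowest those of the tumors with high Cxcl10. On the log2 scale sgNT tumors had a mean of 3.09 ± 0.37 and sgCda tumors one of 3.39 ± 0.37 (SD, n = 5 each). The difference of 0.29 had an exact two-sided permutation p of 0.214 (adjusted over 5 ratios 0.516), where the assignments of 5 and 5 tumors allow no p below 0.00794. Without sgCda replicate 3 the difference was 0.45 (exact two-sided permutation p = 0.0556, adjusted 0.278).

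Cxcr3, the receptor for these ligands, was nearly constant in sgNT tumors, at 10.5, 8.47, 10.97, 9.99 and 10.96 CPM. In sgCda tumors it was at 9.63, 18.5, 20.7, 8.40 and 6.23 CPM. Replicates 2 and 3 of the sgCda group were above every sgNT tumor and replicates 4 and 5 below every one of them. The log2 fold change of 0.32 (SE 0.30, 95% CI −0.33 to 0.97, edgeR adjusted p = 0.9996) therefore joined tumors on both sides of the control range, and without sgCda replicate 3 it was 0.07.

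Cxcr6 also spread more widely among sgCda than among sgNT tumors, with replicate 3 of the sgCda group above every sgNT tumor and replicates 4 and 5 below every one. It was at 66.8, 58.1, 92.5, 72.4 and 55.2 CPM in sgNT tumors and at 66.6, 81.9, 161, 31.9 and 42.7 CPM in sgCda tumors. Here the highest tumor (sgCda replicate 3) had 5.03 times the level of the lowest (sgCda replicate 4), against 1.67 times within the sgNT group. With a 95% CI of −0.65 to 0.96 around a log2 fold change of 0.15 (SE 0.37, edgeR adjusted p = 0.9996), no difference was detectable, and the sign turned to −0.31 without sgCda replicate 3, to −0.047 in limma-voom and to −0.044 with the replicate number as a block.

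Cxcl16, the only known ligand of CXCR6, did not share that spread. It was at 219, 170.5, 278, 223 and 196 CPM in sgNT and at 203, 255, 212, 239 and 186 CPM in sgCda tumors. As for Cxcl9, every sgCda value lay within the sgNT range. Its log2 fold change of 0.014 (SE 0.13, edgeR adjusted p = 0.9996) had a 95% CI of −0.27 to 0.30, which spans 17.0% lower to 22.8% higher.

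Ifng was counted 179 to 606 times per library. In sgNT tumors it was at 6.94, 5.65, 12.0, 12.0 and 6.84 CPM, with replicates 3 and 4 well above the rest. In sgCda tumors it was at 9.42, 9.38, 17.0, 7.69 and 5.66 CPM. Only sgCda replicate 3 was outside the sgNT range. Ifng thus had a log2 fold change of 0.18 (SE 0.31, 95% CI −0.50 to 0.85, edgeR adjusted p = 0.9996), which turned to −0.11 without that tumor.

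Ccl5, a CC chemokine released by activated T and NK cells, was at 71.0, 76.5, 180.1, 107 and 66.0 CPM in sgNT tumors. In sgCda tumors it was at 87.2, 141, 196, 103 and 61.1 CPM. Replicate 3 was the highest tumor of each group. For Ccl5 the log2 fold change came to 0.23 (SE 0.34, 95% CI −0.52 to 0.99, edgeR adjusted p = 0.9996), to −0.030 without sgCda replicate 3 and to 0.56 without sgNT replicate 3.

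**Figure D2:**
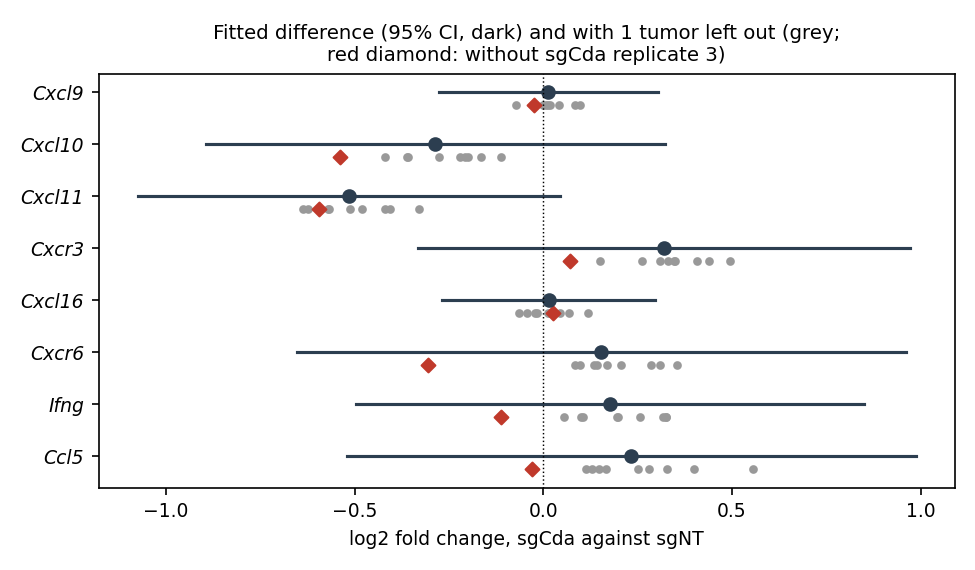
Fitted log2 fold change of sgCda against sgNT (x axis) for each gene (y axis), with its 95% confidence interval as a dark line; grey points are the fits that leave out 1 tumor, and the red diamond is the fit without sgCda replicate 3. Every interval includes 0, and the diamond lies on the other side of 0 from the full fit for Cxcl9, Cxcr6, Ifng and Ccl5.

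Receptors and CXC ligands were unlike in how far the sgCda tumors scattered. The SD of log2 CPM was 0.15 in sgNT and 0.74 in sgCda tumors for Cxcr3, a ratio of 4.83, and 0.29 and 0.90 for Cxcr6, a ratio of 3.05. Of all genes tested, 98.37% had a smaller ratio than Cxcr3 and 92.26% a smaller one than Cxcr6. A wider spread in sgCda tumors was common in these data, since it held for 77.5% of all genes with a median ratio of 1.44. It also held for every T cell marker gene. The SD in sgNT and sgCda tumors was 0.13 and 0.53 for Cd5, 0.29 and 0.82 for Cd8a, and 0.27 and 0.71 for Cd3g. For the ligands the ratio was 0.80 for Cxcl9, 0.86 for Cxcl10, 0.70 for Cxcl16 and 0.53 for Cxcl11, and for Ifng and Ccl5 it was 1.14 and 1.08. Without sgCda replicate 3, a choice made after seeing the data, the ratio was 4.27 for Cxcr3 and 2.09 for Cxcr6. In those 9 tumors 97.26% of all genes had a smaller ratio than Cxcr3 and 81.04% a smaller one than Cxcr6. A ratio above 1 was found for 62.3% of all genes, with a median of 1.21. The ratio fell to 0.31 for Cxcl10, 0.68 for Ifng and 0.84 for Ccl5, while Cxcl9 (0.83), Cxcl16 (0.81) and Cxcl11 (0.50) moved less. These ratios of 5 against 5 tumors are a description and were not tested.

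**Figure D3:**
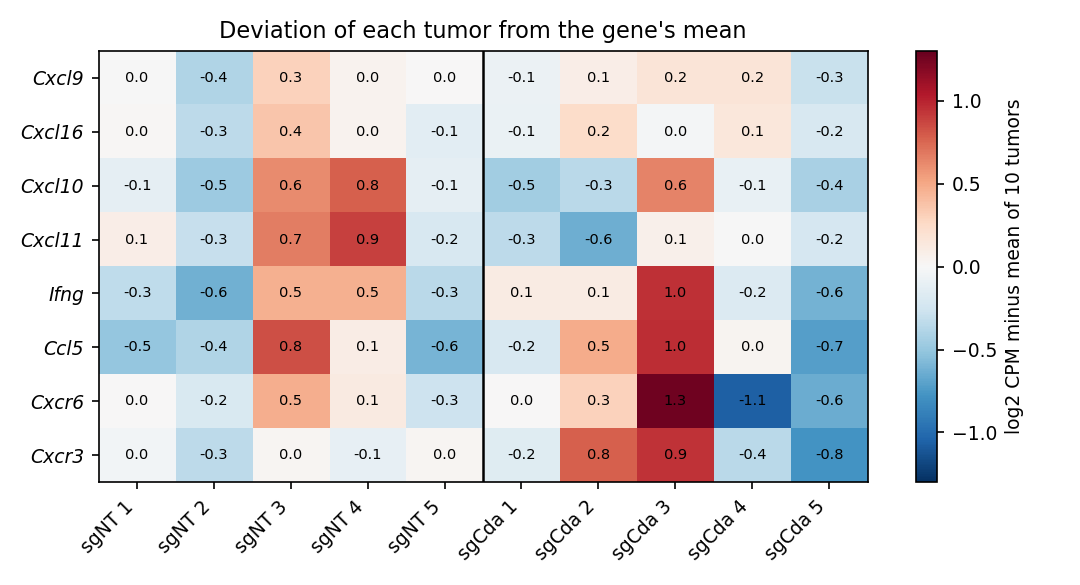
Log2 CPM of each gene minus its mean over 10 tumors (color and printed value), with genes in rows, sgNT and sgCda tumors 1 to 5 in columns and a line between the groups. Ifng, Ccl5, Cxcr6 and Cxcr3 are highest in sgCda replicate 3, Cxcl10 and Cxcl11 in sgNT replicate 4, and Cxcl9 and Cxcl16 in sgNT replicate 3.

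The tumors high in the receptors were also high in T cell transcripts. The summed level of Cd3d, Cd3e and Cd3g, which encode chains of the T cell receptor complex, was 114, 109, 173, 113 and 104 CPM in sgNT tumors and 115, 150.03, 240.1, 79.0 and 73.8 CPM in sgCda tumors. In bulk RNA, fewer cells of a type and less RNA per cell cannot be told apart. Expressed per T cell receptor complex transcript, Cxcr6 was 0.59, 0.53, 0.54, 0.64 and 0.53 in sgNT and 0.58, 0.55, 0.67, 0.40 and 0.58 in sgCda tumors. A ratio to transcripts that vary along with Cxcr6 has a narrower range than Cxcr6 by construction. The part of T cell content in the spread of Cxcr6 was not tested. The mean log2 ratio differed by −0.045 between the groups (exact two-sided permutation p = 0.825, adjusted 0.825). For Cxcr3 on the same basis the difference was 0.18 (sgCda minus sgNT), above the sgNT mean in 4 of 5 sgCda tumors (exact permutation p = 0.310, adjusted 0.516). Of these, sgCda replicates 3 and 5 had log2 ratios of −3.536 and −3.566, close to the sgNT mean of −3.568. Ifng differed by 0.16 (exact permutation p = 0.444, adjusted 0.556) and Ccl5 by 0.24 (exact permutation p = 0.286, adjusted 0.516), each above the sgNT mean in 4 of 5 sgCda tumors. With the level of this complex as a covariate in the edgeR fit, the log2 fold changes were −0.047 for Cxcr6, 0.18 for Cxcr3, 0.12 for Ifng and 0.22 for Ccl5 and none passed the adjusted threshold.

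**Figure D4:**
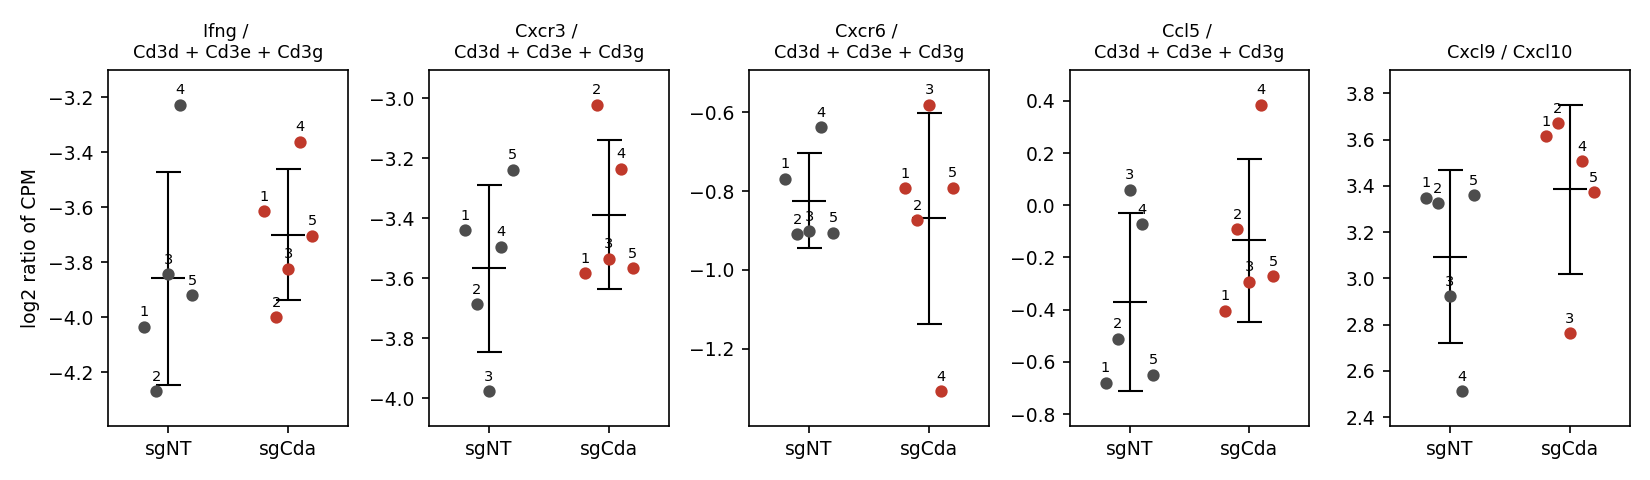
Log2 ratio of CPM within each tumor (y axis, separate scale per panel) for Ifng, Cxcr3, Cxcr6 and Ccl5 over the sum of Cd3d, Cd3e and Cd3g, and for Cxcl9 over Cxcl10, in sgNT and sgCda tumors (x axis); points are tumors with replicate numbers, bars the mean and SD of 5. The groups overlap in all 5 panels, and sgCda replicate 4 has the lowest Cxcr6 and the highest Ccl5 ratio.

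Across the 10 tumors, 9 relations between a cytokine or ligand and its target or receptor were tested on log2 CPM. The closest was Ifng with Ccl5 (Pearson r = 0.88, permutation p = 0.00087, adjusted over the 9 relations 0.00783; Spearman rho = 0.84, permutation p = 0.00339, adjusted 0.0305). It was 0.83 without the 2 tumors farthest from the median of Ifng (exact permutation p = 0.0130) and 0.88 with group means removed. Both genes are products of activated T and NK cells, and T cell and NK cell marker sums were likewise highest in sgCda replicate 3. The part of T and NK cell content in this relation was not tested.

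For Ifng with Cxcl9 the r was 0.73 (permutation p = 0.0172, adjusted 0.0516; rho = 0.67, adjusted 0.118), 0.66 without the 2 farthest tumors and 0.73 with group means removed, and it did not pass the adjusted threshold. For Ifng with Cxcl10 the pooled r was 0.80 (permutation p = 0.0054, adjusted 0.0243; rho = 0.73, adjusted 0.0905) and 0.71 without the 2 farthest tumors. With group means removed it was 0.90 (exact permutation within groups, p = 0.0059). Among the 7 tumors of the lower Cxcl10 set alone, a subset whose Cxcl10 range is narrow by construction, r was 0.071 (exact permutation p = 0.844). Ifng with Cxcl11 gave 0.48 (permutation p = 0.160, adjusted 0.240, with rho = 0.45, adjusted 0.23), 0.57 without the 2 farthest tumors and 0.66 with group means removed. Among the 8 tumors without sgNT replicates 3 and 4, the 2 highest in Cxcl11, r was 0.16. That subset too has a narrow Cxcl11 range by construction. Ifng with Cxcl16 gave 0.55 (permutation p = 0.101, adjusted 0.182; rho = 0.61, adjusted 0.151) and 0.68 without the 2 farthest tumors.

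No relation of a ligand with its receptor passed the test. Cxcl9 and Cxcr3 had r = 0.55 (permutation p = 0.0888, adjusted 0.182; rho = 0.54, adjusted 0.205), and 0.21 without sgNT replicate 2 and sgCda replicate 5. Cxcl10 and Cxcr3 had r = 0.39 (permutation p = 0.262, adjusted 0.337; rho = 0.44, adjusted 0.23), 0.18 without sgNT replicate 4 and sgCda replicate 3. For Cxcl11 and Cxcr3 r was −0.090 (permutation p = 0.811, adjusted 0.811; rho = 0.18, adjusted 0.634). Cxcl16 and Cxcr6 had r = 0.25 (permutation p = 0.489, adjusted 0.550; rho = 0.48, adjusted 0.23), 0.090 without sgNT replicates 2 and 3. Within each group of 5 tumors, a description that was not tested, r was 0.93 in sgNT and 0.037 in sgCda for Cxcl16 with Cxcr6. It was 0.88 and 0.68 for Cxcl9 with Cxcr3, 0.48 and 0.61 for Cxcl10 with Cxcr3, and 0.36 and −0.14 for Cxcl11 with Cxcr3. In sgCda replicate 4 Cxcl16 was at 239 CPM, the third highest level, and Cxcr6 at 31.9 CPM, the lowest.

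**Figure D5:**
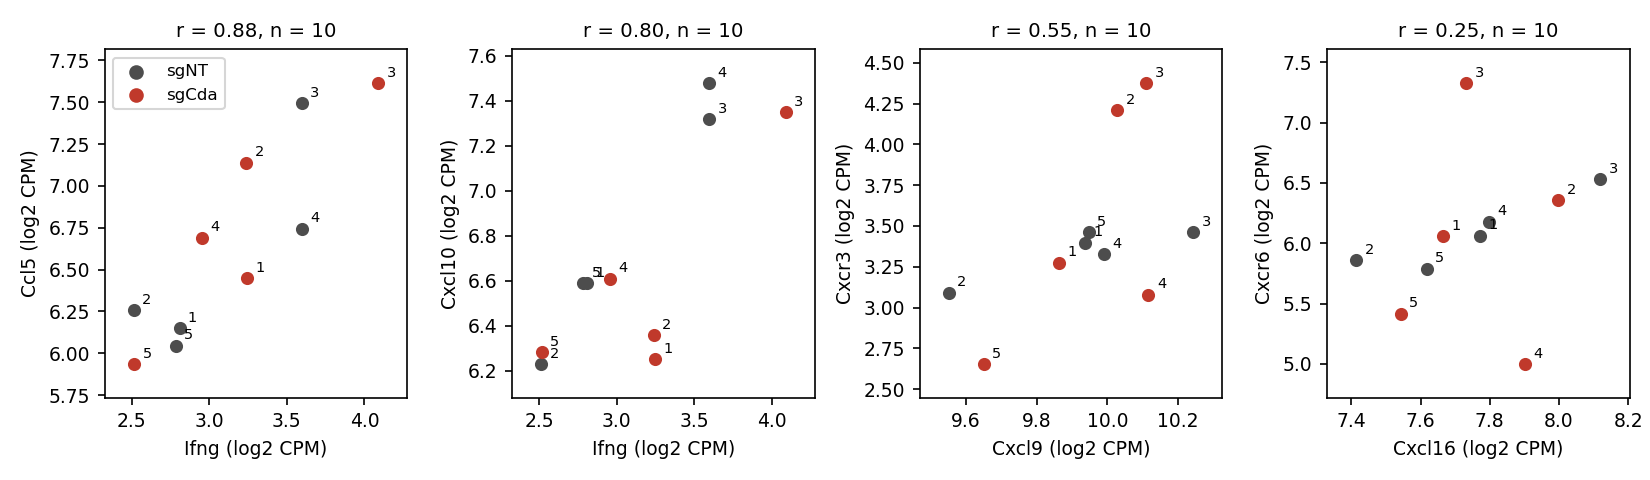
Log2 CPM of 4 pairs of genes in the 10 tumors (grey sgNT, red sgCda, with replicate numbers). Ccl5 rises along with Ifng over the whole range (r = 0.88), Cxcl10 is high in 3 tumors set apart from the other 7 (r = 0.80), and Cxcr3 with Cxcl9 (0.55) and Cxcr6 with Cxcl16 (0.25) are looser.

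The genes whose pattern over the 10 tumors was most like each member differed by member. They are a description, picked as the highest r among 12952 other named genes of sufficient level, and over 10 tumors many genes reach a high r. Cxcr6 was closest to Nkg7 (r = 0.99), a cytotoxic granule gene, Il2rb (0.99), the beta chain of the interleukin-2 receptor, and Fasl (0.98), the death ligand of killer cells, and 143 genes (1.1%) had an r above 0.9 with it. Ccl5 was closest to Il21r (0.97), the interleukin-21 receptor, Pglyrp1 (0.96) and Cst7 (0.94), an inhibitor of granule proteases. Cxcr3 was closest to P2ry6 (0.93), a receptor for extracellular uridine diphosphate, Klhl6 (0.93) and Slain1 (0.93).

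Among the ligands, Cxcl11 was closest to Oas3 (0.93), Rsad2 (0.93) and Dhx58 (0.93), antiviral genes known as type I interferon targets. Cxcl10 was closest to Slit2 (0.95), Ch25h (0.94), the cholesterol 25-hydroxylase, and Ms4a4c (0.94). Cxcl9 was closest to Smim24 (0.93), Cd52 (0.93), a leukocyte surface glycoprotein, and Dok3 (0.92), a myeloid adaptor, and Cxcl16 to Ifnar2 (0.96), a chain of the type I interferon receptor, Cd86 (0.95), a costimulatory ligand of antigen-presenting cells, and Slamf7 (0.93). For Ifng the closest were Gm8369 (0.97) and the skeletal muscle genes Mybpc2 (0.96) and Casq1 (0.96). The summed level of 6 skeletal muscle markers was 325 and 481 CPM in sgNT replicates 3 and 4 and 5.1 to 15.5 CPM in the other sgNT tumors, so the sgNT tumors with more Ifng also held more muscle transcripts. In sgCda tumors it was 467, 280.3, 1946, 32.0 and 5.0 CPM. The part of muscle tissue in the Ifng level was not tested.

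The receptor and signalling genes of interferon gamma were all measured: of 10, 3 had a log2 fold change above 0 and 7 below, with a median of −0.073, and 0 passed the adjusted threshold. Ciita, the master regulator of MHC class II genes, averaged 194 ± 21.6 CPM without and 148 ± 31.0 CPM with the Cda guide (SD, n = 5 each). It alone among the 10 had an unadjusted p under 0.05 (log2 fold change −0.40, SE 0.13, edgeR unadjusted p = 0.0120, adjusted 0.9996), where 2.5% of all genes were and 0.954% were in this direction. Irf1, an interferon-induced transcription factor, was at −0.094 (SE 0.10).

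No gene of the list that interferon gamma is known to induce passed the test. Of 14 listed, 12 were matched and tested, and all 12 had a log2 fold change below 0, with a median of −0.11, where 52.9% of all genes were above 0. None had an unadjusted p under 0.05. Gbp2, an interferon-induced GTPase, averaged 1216 ± 289 CPM in the sgNT group against 1124 ± 188 CPM in the sgCda group (SD, n = 5 each, log2 fold change −0.11, SE 0.17). Gbp3 (−0.19, SE 0.15) and Psmb8 (−0.14, SE 0.10), an immunoproteasome subunit, had the smallest p-values, 0.220 and 0.209 unadjusted in edgeR, and Iigp1 was at −0.0030 (SE 0.11). The group medians were split, higher in sgCda tumors in 6 of the 12 (Gbp2, Gbp4, Gbp7, Irgm1, Igtp and Ido1) and lower in the other 6. The median Gbp2 level was 1008 CPM with the nontargeting guide and 1060.5 CPM with the Cda guide. Without sgCda replicate 3, 11 of the 12 were below 0 with a median of −0.13. Genes of the list share regulators and are not independent of each other, so the count of 12 is a description.

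Upstream of Ifng, the 12 cytokines, receptors and transcription factors that drive its expression were split 9 above and 3 below 0 (median 0.062), and 5 above and 7 below without sgCda replicate 3 (median −0.062). Il2rb was level (0.0032, SE 0.25), Il12rb1 was at −0.15 (SE 0.098) and Il15, the cytokine that maintains NK and memory T cells, at −0.20 (SE 0.12). The other receptors and processing enzymes of these chemokines numbered 9, with 3 above and 6 below 0 and 0 with an unadjusted p under 0.05. Adam10, a protease that sheds CXCL16, averaged 229 ± 13.05 CPM with the sgNT and 225 ± 15.7 CPM with the sgCda guide (SD, n = 5 each). The scavenger receptor gene Ackr3 was at −0.17 (SE 0.13) and Dpp4, a protease that trims the CXCR3 ligands, at 0.23 (SE 0.19).

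Of the other lymphocyte chemokines and receptors, 12 of 14 were tested, 8 above and 4 below 0, with 0 at an unadjusted p under 0.05. Cxcr4 (0.040, SE 0.23) and Xcr1 (0.043, SE 0.32), the receptor of cross-presenting dendritic cells, were the most abundant, and Ccr4 (0.31, SE 0.19) and Cxcl13 (−0.41, SE 0.36) had the smallest p-values. Of the genes that flank the Cxcl9, Cxcl10 and Cxcl11 cluster, Naaa was at −0.011 (SE 0.19), Sdad1 at −0.0030 (SE 0.078), Nup54 at −0.032 (SE 0.11) and Art3, which overlaps Cxcl10 on the other strand, at 0.39 (SE 0.36). None of these 4 had an unadjusted p under 0.05.

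Markers of the cells that make or answer these signals were present in every tumor. All 11 T cell markers had a log2 fold change above 0 (median 0.11, 0 with an unadjusted p under 0.05), and 10 of the 11 were below 0 without sgCda replicate 3 (median −0.18). Their summed level ranged from 340 to 539 CPM in sgNT and from 247 to 790.3 CPM in sgCda tumors. For 6 NK cell markers the ranges were 88.9 to 178 and 102 to 269 CPM, for 9 macrophage markers 5024 to 7694 and 4775 to 8216 CPM, and for 8 dendritic cell markers 255 to 451 and 264 to 564 CPM. The T cell sums were lowest in sgCda replicates 4 and 5, the same tumors in which Cxcr3 and Cxcr6 were below every sgNT tumor. Macrophage sums were highest in sgCda replicate 2 and sgNT replicate 3, which had the highest Cxcl16. Next came sgNT replicate 1 (7315 CPM) and sgCda replicate 3 (7021 CPM), with Cxcl16 at 218.6 and 212.5 CPM. The lowest macrophage sum was that of sgCda replicate 4 (4775 CPM). Yet its Cxcl16 (239 CPM) was lower only than in sgCda replicate 2 and sgNT replicate 3. The relation of Cxcl16 with macrophage content was not tested.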

How the data were processed

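Total RNA of 10 s.c. Panc02 tumors was made into stranded, polyadenylated libraries, whose reads the authors aligned to GRCm38/mm10 with TopHat and Bowtie and assigned to Ensembl genes with HTSeq. The submitters' processing notes list FastQC 0.11.5, Bowtie2 and HTSeq 07.2, and the strand setting was not given in the sources used here. The deposited values are raw counts per gene, without normalization, 1 column per tumor. HTSeq leaves out reads that fit several places or genes, so overlapping genes may be undercounted, for opposite strands depending on the strand setting.

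Sample titles gave the groups. Symbols were matched for 32608 of 37417 genes, and for 134 of 137 listed symbols. The members and gene lists were chosen with earlier results of these data known. Genes were filtered (filterByExpr, minimum count 10, minimum total 15), scaled by TMM and compared by edgeR's quasi-likelihood test (edgeR 4.0.16, R 4.3.3) over all 10 tumors, with p-values adjusted by Benjamini-Hochberg over 15299 genes. CPM refers to the TMM-scaled library size, RPKM to exon union lengths of GENCODE, and log2 CPM uses a prior count of 2. Ratios were compared by exact permutation, relations by 100000 random pairings, or by all pairings under 10 tumors, all two-sided. Fits were tested on simulated data.

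Named were the 8 genes and Cda, per pathway list the 2 most abundant genes and the 2 with the smallest p, and per member the 3 genes with the highest r. Some genes that this rule names are not reported here. Alternatives were DESeq2 1.42.0 size factors and Wald test, limma-voom (limma 3.58.1), library totals, looser and stricter filters, a replicate block, a T cell receptor complex covariate, other prior counts, other denominators and each tumor left out. No column belonged to another sample. The labels do not number the mice, so p-values measure the spread between these tumors only. Counts of 3 equal 0.0754 to 0.106 CPM.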

Additional observations from a re-analysis of the deposited data

Results flagged for a closer look

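Among 48 groups of 5 values checked (the genes named at the start, the 5 ratios and the marker sums), 4 held a tumor far from the other 4 of its group, where chance gives about 1 in 20, or 2.4. Cxcl10 in sgCda replicate 3 was at 162.8 CPM, while the other sgCda tumors were at 76.1 to 97.6 CPM. The T cell marker sum of sgNT replicate 3 was 538.9 CPM, against 340 to 381 CPM in the other sgNT tumors. In sgCda replicate 3 the skeletal muscle sum was 1946 CPM, against 5.0 to 467 CPM, and the neutrophil sum 49.4 CPM, against 111 to 122 CPM. These 2 tumors also held the highest Ccl5 of their groups.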

How the results depend on the processing

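No gene passed the adjusted threshold under any of the 18 alternatives of the fit, and the number with an unadjusted p under 0.05 was 382 in the reported analysis, 830 without the filter beyond 1 count in any tumor, and 280 to 747 with 1 tumor left out, the highest without sgCda replicate 3. The sign of small values turned: without the filter Cxcl9 was at −0.0067 and Cxcl16 at −0.0053, and Cxcr6 was at −0.047 in limma-voom, at −0.047 with the T cell receptor complex covariate and at −0.044 with the replicate block. With 1 tumor left out the log2 fold changes ranged from −0.074 to 0.098 for Cxcl9, −0.064 to 0.12 for Cxcl16, −0.31 to 0.35 for Cxcr6, −0.11 to 0.32 for Ifng and −0.030 to 0.56 for Ccl5, and the low ends of the last 3 all came without sgCda replicate 3. Cxcl10 (−0.54 to −0.11), Cxcl11 (−0.64 to −0.33) and Cxcr3 (0.072 to 0.49) kept their sign under all 18 alternatives, none past the threshold. The cause of these shifts was not tested.

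Leaving out 1 tumor moved the Cxcr6 ratio to the T cell receptor complex from −0.12 to 0.065, while the other 4 ratios kept their sign and none passed (Ifng 0.056 to 0.32, Cxcr3 0.077 to 0.26, Ccl5 0.11 to 0.34, Cxcl9 over Cxcl10 0.15 to 0.45). Among relations, r ranged from −0.21 to 0.22 for Cxcl11 with Cxcr3, 0.13 to 0.63 for Cxcl10 with Cxcr3 and 0.12 to 0.51 for Cxcl16 with Cxcr6. It ranged from 0.66 to 0.80 for Ifng with Cxcl9, past the threshold without sgCda replicate 3 or 4, and from 0.41 to 0.76 for Ifng with Cxcl16, past it without sgCda replicate 3. For Ifng with Cxcl10 the range was 0.75 to 0.88, and the threshold was missed without sgNT replicate 2, 3 or 4 or sgCda replicate 5. Ifng with Ccl5 stayed past it under all 13 alternatives (0.82 to 0.91, adjusted permutation p at most 0.0443).

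The labels tie equal replicate numbers to no shared animal or batch, and same-numbered tumors had correlations of deviations of −0.43 to 0.34. So the block was not taken as a pairing, and it changed no call at the adjusted threshold, with exact sign-flip tests for the ratios. With it Cxcl11 was at −0.46 (edgeR unadjusted p = 0.0323, adjusted 0.99995). Depth left Cxcl11 at 94 to 238 counts, and 5 tumors per group with this spread left wide intervals.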
